A study of Mus with 8 samples.

Results

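The genes described here are those of PPAR-alpha, of mitochondrial and peroxisomal fatty acid oxidation and of ketone body metabolism in regenerating mouse liver. They were chosen by symbol from a list of 40, of which 38 had a row among the 23185 named genes of the expression arrays. Acsl1 and Hadhb were not analysed here. Each value is a log2 expression level from 1 array, and the question is how these transcripts differed between livers with and without LKB1. LKB1, encoded by Stk11, is the kinase that activates AMPK and its related kinases. The 8 liver samples were all taken 48 h after partial hepatectomy, the surgical removal of part of the liver, after which the remnant regrows. Of these, 4 carried the genotype Ctrl and 4 the genotype LKB1 KO. The labels name no strain, age, sex, allele or promoter behind the loss of LKB1, and they do not say whether the samples of a group came from separate animals. The p-values therefore measure the spread between these samples, which may in part be technical.

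Fatty acids enter oxidation after activation to acyl-CoA. Carnitine acyltransferases then pass them into mitochondria, where a cycle of dehydrogenase, hydratase, dehydrogenase and thiolase steps shortens the chain. Peroxisomes shorten very long and branched chains with enzymes of their own, and the liver turns the resulting acetyl-CoA into ketone bodies during fasting. PPAR-alpha is a nuclear receptor that binds fatty acids, pairs with RXR and switches on many genes of these steps in hepatocytes.

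Stk11 was lower in every LKB1 KO array, at 3.97 to 4.84 against 6.46 to 6.76 in the Ctrl arrays (limma adjusted p = 0.000453), so no array went against its label. Array medians lay between 3.75 and 3.96. LKB1 KO 2 had the narrowest spread of values over genes (SD 1.92) and, with Ctrl 4, the lowest mean correlation with its own group (0.974 and 0.976). All 10 hepatocyte markers measured, among them Alb, Ttr and Hnf4a, stood above background in each array, and 0 of them passed the limma test described below (1 had an unadjusted p under 0.05). Background here means 3.73 log2 units, the 95th percentile of the mean levels of 1354 olfactory and vomeronasal receptor genes.

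Ppara, the receptor gene, was 2.37-fold lower in LKB1 KO, and Crat, which encodes carnitine acetyltransferase, was 1.84-fold higher. These were the 2 of 38 genes that passed the threshold, an adjusted p under 0.05 with limma over all named genes. Of all named genes, 1.98% passed, 1.49% lower and 0.487% higher. Among the 11947 named genes with a mean at or above background, where 37 of the 38 lie, 3.76% passed, and the 2 calls are read here as results on Ppara and Crat, not on the group. A further 6 genes had an unadjusted p under 0.05 and did not pass: Fgf21, Acadl, Decr1, Ehhadh, Abcd2 and Pex11a. Together with Ppara and Crat these were 8 of 38 (21.1%), the same share as among the named genes at or above background (21.1%), where all named genes had 13.4%. The counts at an unadjusted p given for each role below stand against that background.

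Means were higher in LKB1 KO for 22 of the 38 genes and lower for 16. The median difference was 0.06 log2 units (LKB1 KO minus Ctrl throughout), where all named genes had a median of 0.02. The fold between the group means was under 1.2 for 26 genes (68.4%), against 72.7% of all named genes and 63.3% of those at or above background. For 34 of 38 the 95% confidence interval of the difference lay within a 2-fold change in either direction, a share of 89.5% beside 91.4% of all named genes and 87.3% of those at or above background. The 4 exceptions were Ppara, Crat, Ehhadh and Abcd2. The median size of the difference, regardless of sign, was 0.13 log2 units for the 38 genes. It was 0.15 for all named genes and 0.19 for those at or above background. Arrays of the groups did not overlap for 7 genes, of which Ppara was lower and Fgf21, Cpt2, Crat, Etfa, Etfb and Ehhadh were higher. Over all named genes 8.84% did not overlap, 5.50% lower and 3.34% higher, and 14.0% did so among those at or above background.

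**Figure D1:**
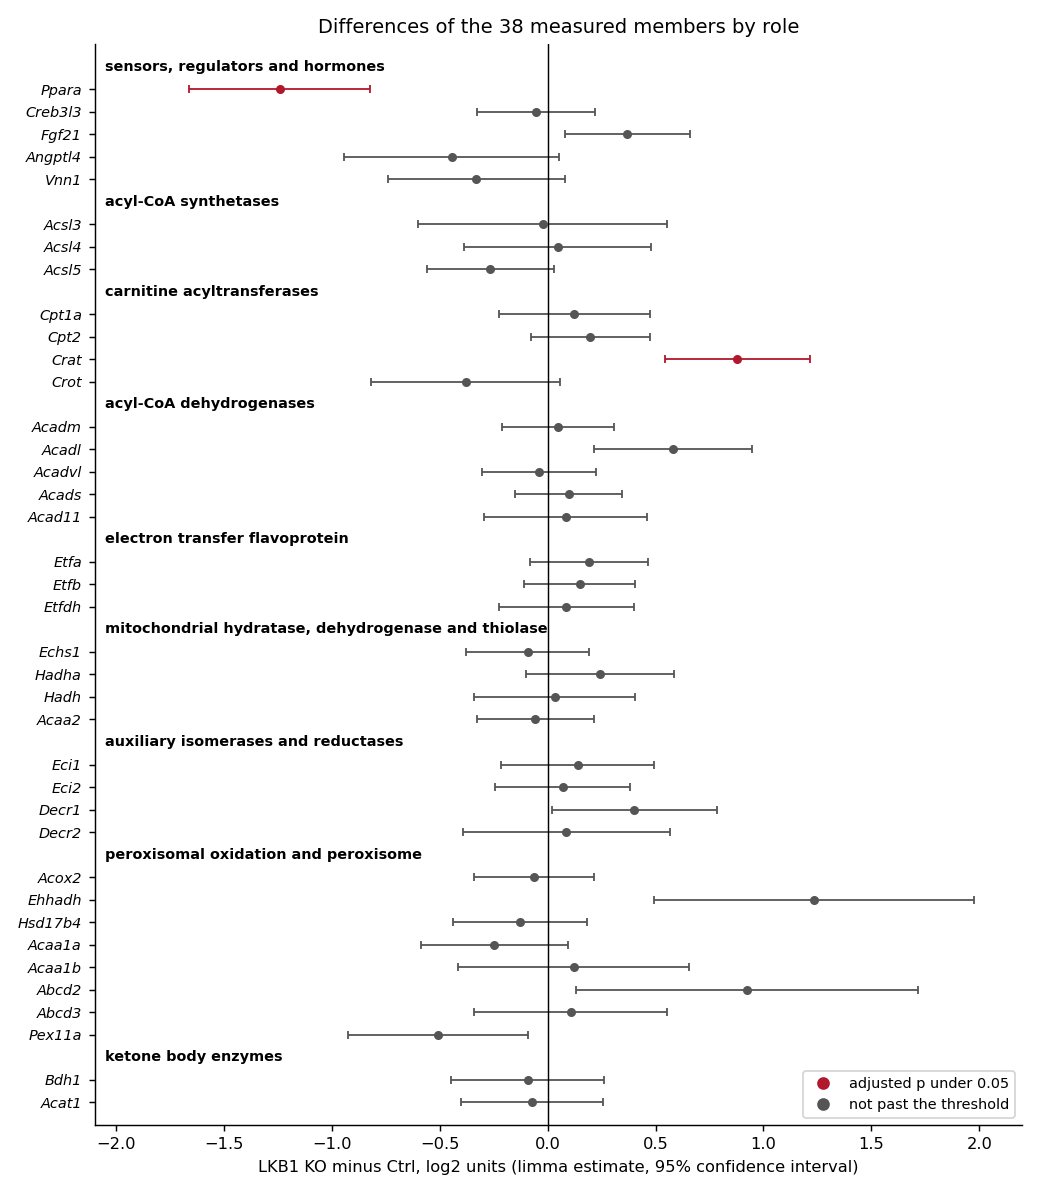
Differences between the group means (LKB1 KO minus Ctrl, log2 units, horizontal axis) of the 38 measured genes, ordered by role, with 95% confidence intervals from limma on 4 arrays per group. Ppara at -1.24 and Crat at 0.88, in red, passed an adjusted p of 0.05, and the intervals of 34 genes stay within 1 log2 unit of 0.

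Among the regulators and secreted proteins, Ppara fell and the other 4 did not pass. Ppara stood at 7.41, 6.90, 6.94 and 6.70 log2 units in Ctrl 1 to 4 and at 5.70, 5.71, 6.15 and 5.43 in LKB1 KO 1 to 4. Each LKB1 KO array lay below the lowest Ctrl array. The means were 6.99 ± 0.30 and 5.75 ± 0.30 (SD, n = 4), a difference of -1.24 (SE 0.19, 95% confidence interval -1.66 to -0.82, limma adjusted p = 0.00895). This difference lay at percentile 0.496 of all named genes, counted from the largest fall. With single arrays left out it ran from -1.38 to -1.10 and passed each time (adjusted p up to 0.0356).

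Creb3l3, a transcription factor gene that acts beside PPAR-alpha in fasted liver, had nearly equal means of 8.32 and 8.27 (difference -0.05, SE 0.12). Fgf21, the gene of a fasting hormone that PPAR-alpha induces, stood at 3.22, 3.01, 2.84 and 3.25 in Ctrl and at 3.33, 3.48, 3.49 and 3.49 in LKB1 KO. All 8 of these values lay below background, so the difference of 0.37 (SE 0.13, adjusted p = 0.225) gives no usable fold. Angptl4, which encodes an inhibitor of lipoprotein lipase, differed by -0.44 (SE 0.23, adjusted p = 0.443) and Vnn1, a pantetheinase gene, by -0.33 (SE 0.19, adjusted p = 0.499). The arrays of both genes overlapped between the groups. Their transcripts had lower means alongside Ppara, but neither passed.

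Activation to acyl-CoA held 0 genes past the threshold in limma, and 0 at an unadjusted p under 0.05. The long-chain acyl-CoA synthetase genes Acsl3, Acsl4 and Acsl5 differed by -0.02 (SE 0.26), 0.05 (SE 0.20) and -0.27 (SE 0.13). Acsl5 had the smallest p of them, with 8.84, 9.04, 8.87 and 8.77 in Ctrl and 8.55, 8.47, 8.56 and 8.88 in LKB1 KO (adjusted p = 0.437). Only LKB1 KO 4 of Acsl5 reached into the Ctrl range. Acsl3 was the most variable of the 3 within LKB1 KO, from 5.35 in LKB1 KO 2 to 6.69 in LKB1 KO 4.

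The carnitine acyltransferase genes differed from each other. Crat, whose mitochondrial and peroxisomal enzyme moves acetyl groups between CoA and carnitine, rose. Its levels were 6.08, 6.12, 6.30 and 6.38 in Ctrl and 7.20, 6.73, 7.32 and 7.14 in LKB1 KO. The groups did not overlap, and LKB1 KO 2 was the lowest of its group. The means were 6.22 ± 0.14 and 7.10 ± 0.25 (SD, n = 4), a difference of 0.88 (SE 0.15, 95% confidence interval 0.54 to 1.21, limma adjusted p = 0.0167). The call held without Ctrl 3, Ctrl 4 or LKB1 KO 2 and was lost without any other single array (adjusted p up to 0.0597), while the difference stayed between 0.81 and 1.00 with any single array left out.

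Cpt1a, the gene of the outer-membrane enzyme that malonyl-CoA inhibits and that controls entry into mitochondria, did not pass. It stood at 8.23, 7.76, 8.18 and 8.01 in Ctrl and at 8.12, 7.89, 8.45 and 8.22 in LKB1 KO. The groups overlapped, and the difference of 0.12 (SE 0.16) had an interval of -0.23 to 0.47. Cpt2, its inner-membrane counterpart, differed by 0.20 (SE 0.13, adjusted p = 0.562) with arrays that did not overlap. Crot, which encodes the carnitine octanoyltransferase of peroxisomes, differed by -0.38 (SE 0.20, adjusted p = 0.460). Its Ctrl 4 value of 9.89 lay under all LKB1 KO arrays (10.01 to 10.33), whereas Ctrl 1 to 3 lay between 10.63 and 10.81. Without Ctrl 4 the difference of Crot was -0.59 (adjusted p = 0.0646).

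**Figure D2:**
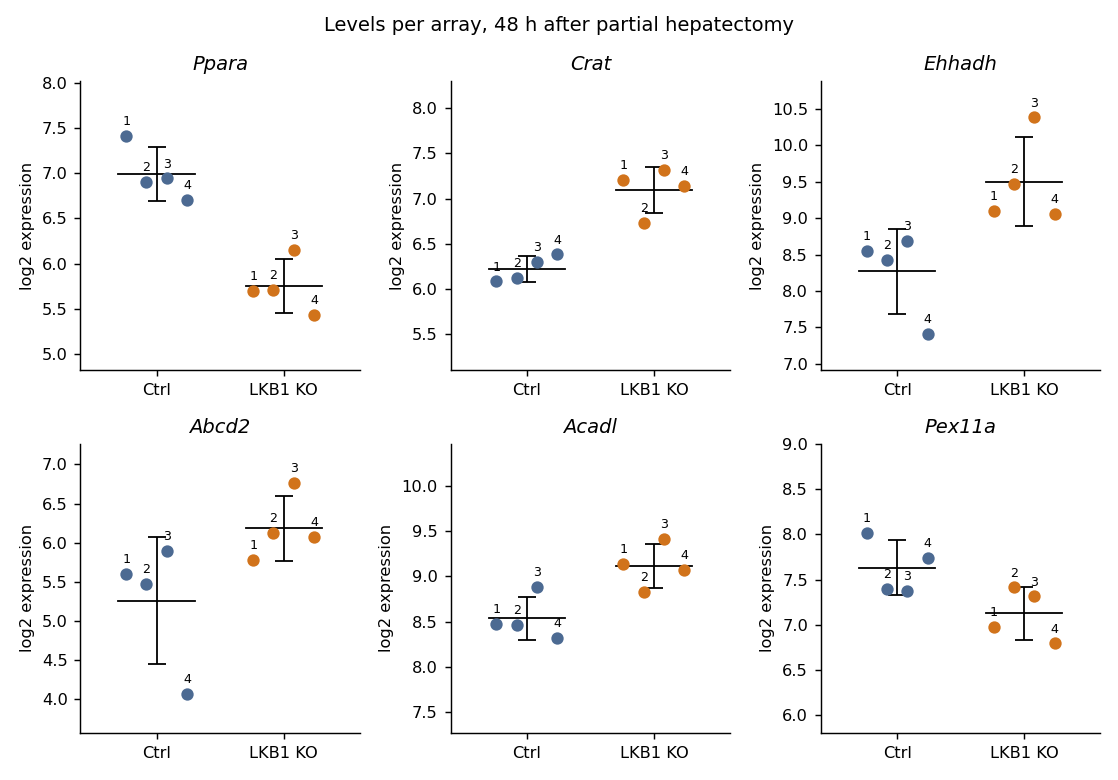
Log2 expression (vertical axis) of 6 genes in each array, with Ctrl in blue, LKB1 KO in orange, the replicate number above each point, and the mean and SD of each group (n = 4) in black; each vertical axis has its own range. Ppara and Crat separate the groups, Ehhadh does so with a wide spread, and Ctrl 4 is the lowest array of Ehhadh (7.41), Abcd2 (4.07) and Acadl (8.32).

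Of the acyl-CoA dehydrogenase genes, whose enzymes take the first step of each mitochondrial cycle for a given chain length, 0 of 5 passed in limma and 1, Acadl, had an unadjusted p under 0.05. Acadl, for long chains, had the largest difference, 0.58 (SE 0.17, 1.49-fold, adjusted p = 0.124). Its levels were 8.48, 8.47, 8.88 and 8.32 in Ctrl and 9.14, 8.83, 9.42 and 9.07 in LKB1 KO. Only Ctrl 3 reached into the LKB1 KO range, just above LKB1 KO 2. The medium-chain gene Acadm (0.05, SE 0.12), the very-long-chain gene Acadvl (-0.04, SE 0.12), the short-chain gene Acads (0.10, SE 0.11) and Acad11 (0.08, SE 0.17) lay close to 0. The interval of Acadm, -0.21 to 0.31, is among the tightest here.

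Electrons from these dehydrogenases pass to the electron transfer flavoprotein, with subunit genes Etfa and Etfb, and on through its dehydrogenase Etfdh. All 3 had higher means in LKB1 KO, by 0.19 (SE 0.12), 0.15 (SE 0.12) and 0.09 (SE 0.14), and 0 passed in limma or had an unadjusted p under 0.05. Etfa stood at 10.20, 10.18, 10.17 and 9.85 in Ctrl and at 10.32, 10.28, 10.22 and 10.33 in LKB1 KO (adjusted p = 0.569). Its LKB1 KO arrays all lay above the Ctrl arrays, and Ctrl 4 stood well under the other 3. The 3 differences thus came to at most 1.14-fold.

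The remaining steps of the mitochondrial cycle held 0 calls in limma among 4 genes, and 0 at an unadjusted p under 0.05. Hadha, the alpha subunit of the trifunctional protein, had the smallest p of its role, with a difference of 0.24 (SE 0.15, adjusted p = 0.563). Its levels were 9.52, 9.75, 9.90 and 9.40 in Ctrl and 9.94, 9.62, 10.10 and 9.90 in LKB1 KO, and they overlapped. The short-chain hydratase gene Echs1 (-0.09, SE 0.13), the hydroxyacyl-CoA dehydrogenase gene Hadh (0.03, SE 0.17) and the thiolase gene Acaa2 (-0.06, SE 0.12) were within 1.07-fold of Ctrl.

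Unsaturated fatty acids need auxiliary isomerases and reductases, and all 4 of their genes had higher means in LKB1 KO with 0 past the threshold in limma and 1 at an unadjusted p under 0.05. Decr1, the mitochondrial dienoyl-CoA reductase gene, differed by 0.40 (SE 0.17, 95% confidence interval 0.02 to 0.78, adjusted p = 0.344). It stood at 7.68, 7.79, 7.93 and 7.49 in Ctrl and at 7.96, 7.92, 8.59 and 8.03 in LKB1 KO. LKB1 KO 3 was far above the rest of its group, and LKB1 KO 2 lay just below Ctrl 3. The isomerase genes Eci1 (0.14, SE 0.16) and Eci2 (0.07, SE 0.14) and the peroxisomal reductase gene Decr2 (0.09, SE 0.22) differed little. Without Ctrl 4, Eci2 and Decr2 turned to -0.04 and -0.11.

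Peroxisomal genes spread in both directions, with 4 higher and 4 lower means and 0 of 8 past the threshold in limma. Of these, 3 had an unadjusted p under 0.05: Ehhadh, Abcd2 and Pex11a. Ehhadh, the bifunctional enzyme of peroxisomal oxidation and a well-known PPAR-alpha target, had a 2.35-fold higher mean in LKB1 KO. Its levels were 8.55, 8.43, 8.68 and 7.41 in Ctrl and 9.10, 9.47, 10.38 and 9.06 in LKB1 KO. Every LKB1 KO array lay above every Ctrl array, yet the spread was wide in both groups (SD 0.58 and 0.62). The difference of 1.23 (SE 0.34, 95% confidence interval 0.49 to 1.97) had a limma adjusted p of 0.104. It was 0.95 without Ctrl 4 and 0.94 without LKB1 KO 3, with adjusted p of 0.166 and 0.194. The difference is at percentile 99.6 of all named genes.

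Abcd2, a transporter gene for very long acyl-CoA into peroxisomes and likewise a PPAR-alpha target, showed a similar layout with less separation. It stood at 5.60, 5.47, 5.90 and 4.07 in Ctrl and at 5.78, 6.13, 6.76 and 6.07 in LKB1 KO. Ctrl 4 was the lowest and LKB1 KO 3 the highest array, and Ctrl 3 overlapped LKB1 KO 1. The difference of 0.92 (SE 0.36, adjusted p = 0.280) was 0.53 without Ctrl 4 (adjusted p = 0.361). Its relative Abcd3 differed by 0.11 (SE 0.20), and by -0.09 without Ctrl 4.

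Pex11a, which encodes a membrane protein of peroxisome division and is induced by PPAR-alpha ligands, had the largest difference below 0 after Ppara. It stood at 8.01, 7.40, 7.38 and 7.74 in Ctrl and at 6.98, 7.41, 7.32 and 6.79 in LKB1 KO. LKB1 KO 2 lay above Ctrl 2 and Ctrl 3, and the difference of -0.51 (SE 0.19) did not pass (adjusted p = 0.254). The oxidase gene Acox2, for bile acid precursors and branched chains, differed by -0.06 (SE 0.13), and Hsd17b4, the second bifunctional enzyme gene, by -0.13 (SE 0.14). The thiolase paralogs Acaa1a and Acaa1b differed by -0.25 (SE 0.15) and 0.12 (SE 0.24). Their probes may pick up each other's transcripts, so the split between the paralogs is uncertain. Acaa1b was 5.30 in Ctrl 4 and 6.40 to 6.41 in the other Ctrl arrays, and its difference was -0.16 without Ctrl 4.

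Ketone body genes among the 38 were Acat1, the mitochondrial acetoacetyl-CoA thiolase, and Bdh1, which interconverts acetoacetate and beta-hydroxybutyrate. They differed by -0.07 (SE 0.15) and -0.09 (SE 0.16), and 0 of the 2 passed in limma or had an unadjusted p under 0.05. Bdh1, with the smaller p, stood at 8.06, 8.09, 8.07 and 7.61 in Ctrl and at 7.61, 7.97, 8.12 and 7.77 in LKB1 KO (adjusted p = 0.865). The lowest arrays of both groups were equal to 2 decimals, and the ranges overlapped.

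Single arrays differed in how the genes stood as a group. Ctrl 4 was the lowest Ctrl array for 25 of the 38 genes (65.8%), whereas it was lowest for 28.1% of the named genes at or above background. LKB1 KO 3 was the highest LKB1 KO array for 25 of 38, against 31.6% of those genes, and LKB1 KO 2 was the lowest for 17 of 38 (44.7%), against 51.7%. The median deviation of the 38 genes from each gene's own mean over the 8 arrays was -0.20 in Ctrl 4 and 0.16 in LKB1 KO 3, and between -0.04 and 0.06 in the other 6. The count of higher means therefore rests on Ctrl 4: without it 15 genes were higher and 23 lower, with a median difference of -0.05. Without both Ctrl 4 and LKB1 KO 2 the counts were 18 and 20 and the median -0.01. Ppara and Crat passed in both of these fits. In the same array, Ctrl 4, the markers of 4 other cell types had their highest median deviation. It was 0.606 for neutrophil (next highest array 0.378), 0.465 for stellate cell (next 0.158), 0.434 for cholangiocyte (next 0.235) and 0.365 for endothelial markers (next 0.321). Of the 7 neutrophil markers, 5 had means under background. The remaining lists did not peak in Ctrl 4. The deviation there was 0.206 for macrophage (0.776 in Ctrl 1) and 0.062 for red blood cell precursor markers (0.348 in Ctrl 1). For adipocyte markers it was -0.040, and for lymphocyte markers -0.087, the lowest of the 8 arrays. The hepatocyte markers had -0.046 in Ctrl 4 and their lowest value, -0.094, in LKB1 KO 2. What part this has in the low values of Ctrl 4 was not tested.

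**Figure D3:**
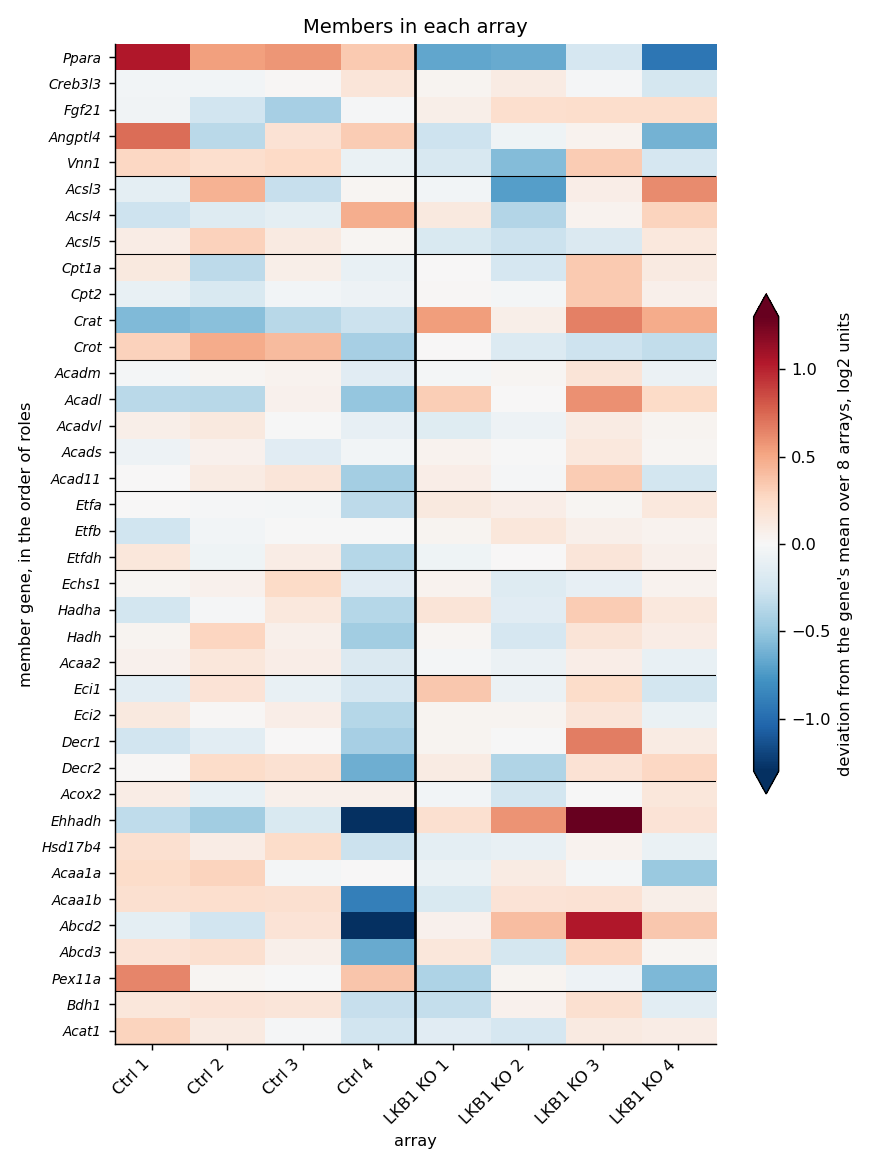
Deviation of each gene from its mean over the 8 arrays, in log2 units, by array (columns, Ctrl left of the heavy line) and gene (rows, with thin lines between the roles); red is above and blue below the gene's mean, and the scale ends at 1.3 units. The column of Ctrl 4 is blue for most genes of oxidation and that of LKB1 KO 3 is red, while Ppara in the top row is red in all Ctrl and blue in all LKB1 KO arrays.

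Other genes of the pathway, from lists of 94 symbols of which 81 were measured, held 4 rises and 4 falls past the threshold in limma. Of all named genes 1.98% passed (0.487% higher, 1.49% lower), and of those at or above background 3.76%. An unadjusted p under 0.05 was reached by 30 of the 81, against 21.1% of genes at or above background. These lists were chosen with earlier results of these data known, so the counts are not read as a result on the lists. The 81 genes had 35 higher and 46 lower means, with a median difference of -0.10. Among 13 receptor partners and coregulators, 1 rose and 1 fell, and 3 had an unadjusted p under 0.05. Rxra, the gene of the partner with which PPAR-alpha binds DNA, fell: it stood at 9.39, 9.22, 9.37 and 9.50 in Ctrl and at 8.65, 8.64, 8.81 and 8.62 in LKB1 KO. The groups did not overlap (difference -0.69, SE 0.12, 1.61-fold, adjusted p = 0.0161). The call of Rxra was lost without LKB1 KO 1 or LKB1 KO 4 (adjusted p of 0.0551 and 0.0563). The coactivator gene Ppargc1a, whose protein acts with PPAR-alpha on oxidation genes, rose in the same arrays. It stood at 7.13, 6.47, 6.92 and 7.22 in Ctrl and at 8.43, 8.10, 8.36 and 8.20 in LKB1 KO (difference 1.34, adjusted p = 0.00401), and kept its call without any single array. The related receptor gene Pparg differed by -0.53 (SE 0.12, adjusted p = 0.0629).

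The 33 genes listed as other known PPAR-alpha targets held 3 rises and 0 falls past the threshold in limma. Their median difference was 0.07, with 20 higher and 13 lower means. An unadjusted p under 0.05 was reached by 14 of them, in both directions. Acot1 and Acot2, which encode cytosolic and mitochondrial acyl-CoA thioesterases, rose. Acot1 stood at 4.77, 4.96, 6.73 and 5.85 in Ctrl and at 7.08, 7.93, 8.32 and 7.30 in LKB1 KO (difference 2.08, SE 0.41, adjusted p = 0.0309). Ctrl 3 came closest to the LKB1 KO arrays, and the call held without Ctrl 3 or Ctrl 4 and was lost without any other single array (adjusted p up to 0.0985). Acot2 differed by 1.66 (SE 0.27, adjusted p = 0.0123) and kept its call without any single array, but lost it without both LKB1 KO 2 and Ctrl 4 (adjusted p = 0.0520). The sequences of these thioesterases are closely related, so their probes may share signal. Plin2, a lipid droplet coat gene, differed by 0.75 (SE 0.15, adjusted p = 0.0347), and lost its call without any single array other than Ctrl 4 or LKB1 KO 2 (adjusted p up to 0.106).

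Several classical targets, chosen here after their values were seen, had wide spreads and did not pass. The fatty acid omega-hydroxylase gene Cyp4a10 stood at 6.25, 4.05, 6.84 and 3.16 in Ctrl and at 7.29, 7.95, 9.12 and 7.85 in LKB1 KO. All LKB1 KO arrays lay above all Ctrl arrays, the Ctrl arrays themselves spanned over 3 log2 units, and Ctrl 4 lay below background (difference 2.98, SE 0.73, adjusted p = 0.0697). Without Ctrl 3 the difference was 3.57 and passed (adjusted p = 0.0294). Cyp4a14, its close relative, differed by 1.57 (SE 0.76, adjusted p = 0.410) and overlapped, and probes of this family may pick up each other's transcripts. Aldh3a2, a fatty aldehyde dehydrogenase gene, differed by 1.10 (SE 0.40, adjusted p = 0.247), Cidec by 1.20 (SE 0.28, adjusted p = 0.0590) and Hilpda, a lipid droplet gene, by 1.10 (SE 0.27, adjusted p = 0.0706). Cidec and Hilpda passed without Ctrl 4 (adjusted p of 0.00774 and 0.0118), and Hilpda also without LKB1 KO 2 (adjusted p = 0.0410). Pdk4, the pyruvate dehydrogenase kinase gene that rises in fasting, differed by 0.76 (SE 0.37, adjusted p = 0.421) and by 1.16 without Ctrl 4 (adjusted p = 0.0464). Fabp1, the liver fatty acid binding protein gene, differed by -0.21 (SE 0.15, adjusted p = 0.612). Besides Acot1, Acot2, Plin2, Cyp4a10, Aldh3a2, Cidec and Hilpda, higher means with an unadjusted p under 0.05 were those of Hsdl2, Retsat and Cidea. Hsdl2 differed by 0.60 (SE 0.17, adjusted p = 0.119) without overlap. Retsat differed by 0.69 (SE 0.23, adjusted p = 0.194) and overlapped. Cidea differed by 0.33 (SE 0.14, adjusted p = 0.345), with all its arrays under background. Lower means on this list with an unadjusted p under 0.05 were those of Sult2a8, Acadsb, Txnip and Gpd1. Sult2a8 differed by -1.92 (SE 0.48, adjusted p = 0.0755) and overlapped. Acadsb differed by -0.55 (SE 0.13, adjusted p = 0.0682) and Txnip by -0.54 (SE 0.15, adjusted p = 0.0991), both without overlap. Gpd1 differed by -0.52 (SE 0.17, adjusted p = 0.194) and overlapped. Of the 33 genes, 20 had higher and 13 lower means.

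**Figure D4:**
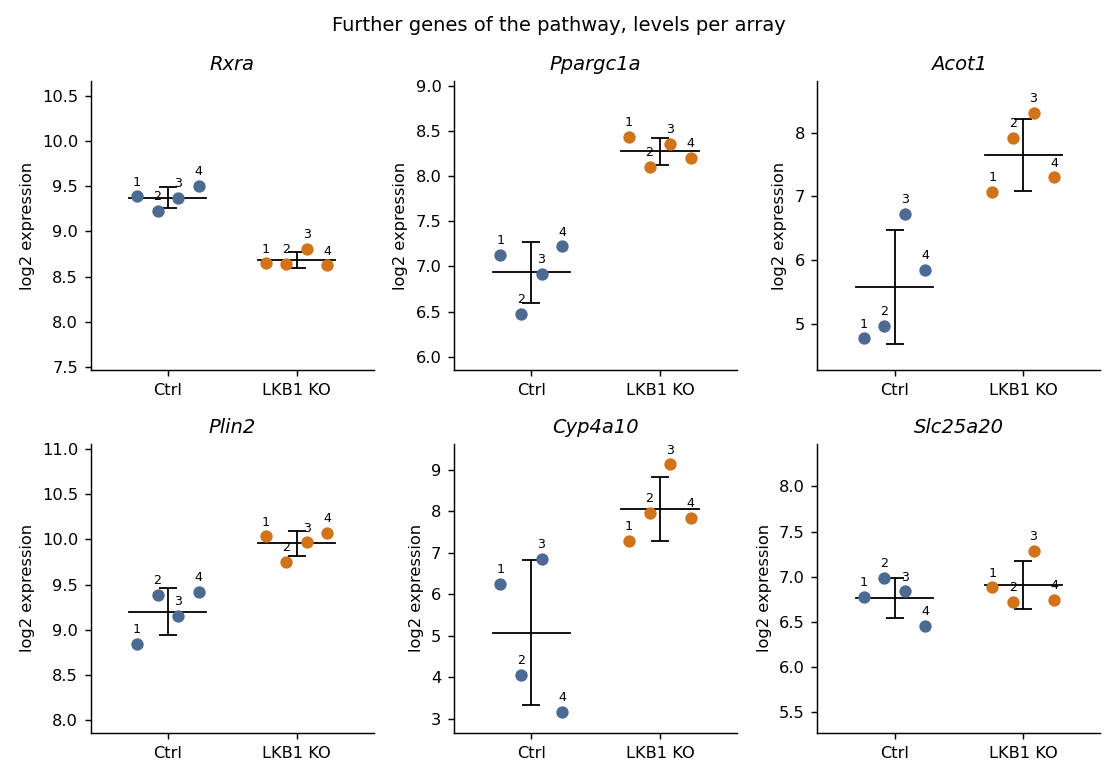
Log2 expression (vertical axis, each with its own range) of 6 further genes of the pathway in each array, with Ctrl in blue, LKB1 KO in orange, replicate numbers above the points and the mean and SD of each group (n = 4) in black. Rxra is lower and Ppargc1a, Acot1 and Plin2 are higher in LKB1 KO, Cyp4a10 has a Ctrl spread from 3.16 to 6.84, and Slc25a20 overlaps.

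Carnitine supply and malonyl-CoA control held 0 calls in limma among 9 genes, and 2 at an unadjusted p under 0.05. Means were higher for 3 of the 9 and lower for 6, with a median difference of -0.28. The carnitine transporter gene Slc22a5 had the smallest p, with a difference of 0.58 (SE 0.18, adjusted p = 0.146). It stood at 5.09, 4.79, 5.27 and 5.06 in Ctrl and at 5.85, 5.40, 5.96 and 5.33 in LKB1 KO, without overlap. Slc25a20, the carnitine-acylcarnitine carrier that works between Cpt1a and Cpt2, differed by 0.14 (SE 0.17, adjusted p = 0.778). Besides Slc22a5, Acaca had an unadjusted p under 0.05, with a difference of -0.42 (SE 0.17, adjusted p = 0.296) and overlapping arrays. Acacb differed by -0.35 (SE 0.22) and Mlycd by -0.28 (SE 0.18), and neither passed. Of 4 genes of ketone body synthesis, use and transport, 0 passed in limma, 1 had an unadjusted p under 0.05, and the monocarboxylate transporter gene Slc16a6 came closest at 0.89 (SE 0.26, adjusted p = 0.133). Without LKB1 KO 2, whose 5.66 lay within the Ctrl range of 4.96 to 5.80, Slc16a6 passed (1.13, adjusted p = 0.0334).

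Further genes listed under peroxisomes held 3 falls and 0 rises past the threshold in limma. An unadjusted p under 0.05 was reached by 7 of the 10 genes for peroxisomal oxidation and by 3 of the 12 for biogenesis. Among 10 genes listed for peroxisomal oxidation, Scp2, the sterol carrier protein and thiolase gene, fell from Ctrl values of 11.02, 11.07, 10.79 and 10.94 to 10.36, 10.41, 10.28 and 10.46 (difference -0.58, SE 0.12, adjusted p = 0.0339). Abcd4, a relative of Abcd2 and Abcd3 that stands on the same list, encodes a transporter known for moving cobalamin out of lysosomes and not for peroxisomal oxidation. It fell, and differed by -0.79 (SE 0.16, adjusted p = 0.0310). Scp2 and Abcd4 both lost their calls without any single array other than Ctrl 3 (adjusted p up to 0.110 and 0.0983). Catalase (Cat, -0.62, SE 0.17, adjusted p = 0.106) and the oxidase gene Acox3 (-0.61, SE 0.17, adjusted p = 0.116) had lower means, whereas the racemase gene Amacr (0.60, SE 0.17, adjusted p = 0.122) and the thioesterase gene Acot3 (1.01, SE 0.23, adjusted p = 0.0512) had higher means; none of these 4 passed. Cat passed without Ctrl 4 (-0.77, adjusted p = 0.0246), Amacr without LKB1 KO 2 (0.75, adjusted p = 0.0300) and Acot3 without Ctrl 3 (1.17, adjusted p = 0.0333). Of 12 genes of peroxisome biogenesis, 11 had lower means and 1 passed: Pex6, an ATPase gene of receptor recycling, stood at 6.91, 6.75, 6.77 and 6.76 in Ctrl and at 6.17, 6.16, 6.10 and 5.83 in LKB1 KO (difference -0.73, SE 0.12, adjusted p = 0.0160). Its call was lost without Ctrl 1 (adjusted p = 0.0521).

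**Figure D5:**
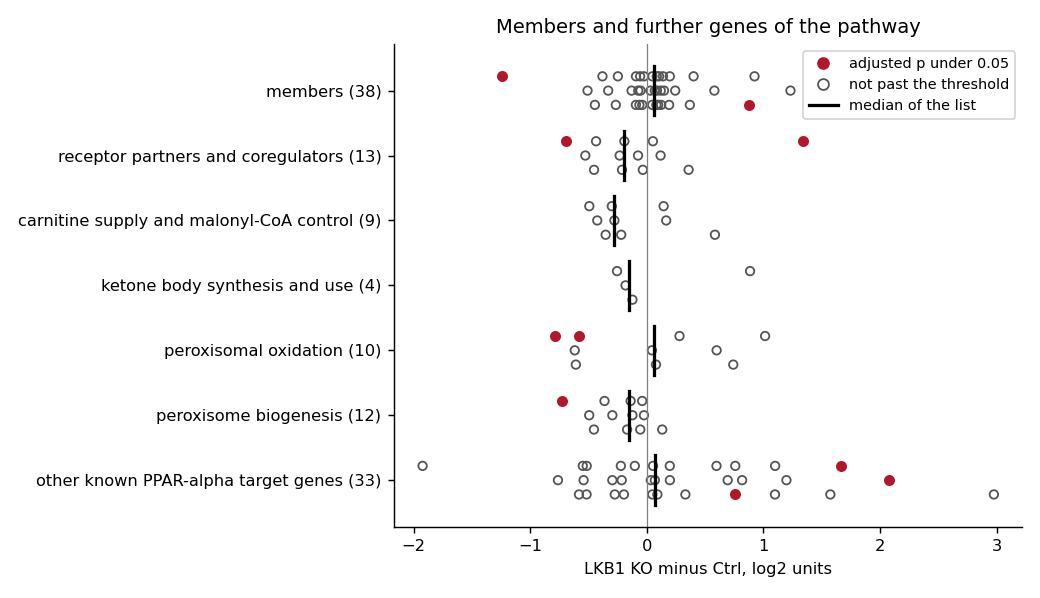
Differences between the group means (LKB1 KO minus Ctrl, log2 units, horizontal axis) for the 38 genes of the main list (top row, labelled members) and for 6 further lists of the pathway, with the number of measured genes in brackets; each circle is a gene, filled red where the adjusted p was under 0.05, and black bars are list medians. The 38 genes run from -1.24 to 1.23 with a median of 0.06, and the other known targets spread from -1.92 for Sult2a8 to 2.98 for Cyp4a10.

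Markers of several cell types other than hepatocytes had lower means in LKB1 KO. Endothelial markers had lower means in LKB1 KO for 10 of 10 genes, of which 3 fell (Kdr, Clec4g and Gpr182), and macrophage markers for 9 of 9, of which Csf1r fell. An unadjusted p under 0.05 in limma was reached by 7 of the 10 endothelial and 5 of the 9 macrophage markers. The endothelial differences were uneven: Pecam1 (-0.08), Cdh5 (-0.10) and Lyve1 (-0.15) differed little, and their arrays overlapped. The log2 of the summed endothelial level ran from 10.20 to 10.52 in Ctrl and from 9.75 to 9.96 in LKB1 KO, and that of the macrophage markers from 9.72 to 10.55 and from 9.35 to 9.81. No endothelial or macrophage marker had a mean under background. Stellate cell markers had lower means for 7 of 10 and neutrophil markers for 6 of 7, with 0 past the threshold in limma in both lists and 4 at an unadjusted p under 0.05 in each, and 5 of the 7 neutrophil markers had means under background. Of the lymphocyte markers 6 of 9 had higher means in LKB1 KO, but 8 of 9 had means under background. Of the adipocyte markers 3 of 4 had means under background, and their median difference was 0.02. Red blood cell precursor markers had lower means for 4 of 5 (median difference -0.45), and Alas2, the heme synthesis gene of these cells, fell without overlap (-1.03, SE 0.23, adjusted p = 0.0471). Their log2 summed level ran from 9.46 to 10.002 in Ctrl and from 8.62 to 10.02 in LKB1 KO. Cholangiocyte markers had a median difference of -0.04, with 0 of 5 past the threshold in limma or at an unadjusted p under 0.05. The hepatocyte markers differed between -0.31 and 0.17, with summed levels of 14.89 to 14.99 and 14.84 to 14.92. The part of these shifts in the fall of Ppara and the other changes was not tested. In a bulk liver sample fewer cells of a type and less RNA per cell cannot be told apart.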

How the data were processed

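Liver RNA of 8 samples (4 Ctrl, 4 LKB1 KO) was measured on 1 array each. Per the labels' protocols, TRIzol RNA was amplified with the Ovation PicoSL kit and labelled with biotin. The authors deposited log2 expression values, and the submitters' processing notes name RMA and Partek. The sources used here name no version and no build, and the text prints neither coordinates nor sequences. RMA compresses differences between dim probes. Of 25206 rows, 23185 had 1 gene symbol, 2021 had none and 0 had several, and no symbol was repeated.

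LKB1 KO minus Ctrl was fitted to all 23185 named rows with limma 3.58.1 in R 4.3.3 (lmFit, eBayes), with no filter and Benjamini-Hochberg adjustment. SEs are moderated. The number of arrays limits precision. The members and lists were chosen with earlier results of these data known. Every member is named with its difference. Values per array are given for members past the threshold and for the smallest p of each role. Further genes are named where they passed, or by the smallest p of a list with none. Pparg, Slc25a20, Acaca, Acacb, Mlycd, Cat, Acox3, Amacr and Acot3 were named outside this rule. So were the other known targets that did not pass. The fit was checked on simulated data in 10 runs, with normally distributed noise and changes added to some genes. The noise was independent between genes and arrays, so shifts of many genes in 1 array, as in Ctrl 4, were not simulated. Of changes of 0.5, 1 and 2 log2 units, 7.9%, 62.3% and 95.3% were recovered, and 4.2% of calls were false. In this simulation most changes of 0.5 log2 units thus did not pass. An exact two-sided permutation test of 4 against 4 arrays cannot go below 0.0286 and was not used. Alternatives were the replicate block, arrays left out singly and LKB1 KO 2 with Ctrl 4, quantile normalization, median centring, removal of dim genes, 2 other variance models, array weights, all rows and stricter thresholds.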

Additional observations from a re-analysis of the deposited data

Results flagged for a closer look

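In groups of 4 arrays, the lowest or highest array was set against the gap to its neighbour with Dixon's criterion, in 76 groups of arrays for the 38 genes and 124 in all. Chance flags about 1 in 20 such groups, and 15 were flagged, 9 of them among the 38 genes. Of the 15, 6 were in Ctrl 4.

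In Ctrl 4 the lowest values were those of Vnn1 (5.24, others from 5.54 to 5.60), Etfa (9.85, others from 10.17 to 10.20), Acaa1b (5.30, others from 6.40 to 6.41), Abcd3 (8.57, others from 9.29 to 9.43) and Bdh1 (7.61, others from 8.06 to 8.09). Hilpda was in contrast highest in Ctrl 4 (5.83, others from 4.71 to 4.83). The other Ctrl arrays that stood apart were Ctrl 1 for Etfb (10.15, lowest), Acot2 (3.90, lowest) and Pex6 (6.91, highest), and Ctrl 2 for Acox2 (8.75, lowest).

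In LKB1 KO, Fgf21 was lowest in LKB1 KO 1 (3.33), below background like its other arrays. Decr1 was highest in LKB1 KO 3 (8.59, others from 7.92 to 8.03), as was Rxra (8.81, others from 8.62 to 8.65). In LKB1 KO 2, Hilpda (5.55, others from 6.27 to 6.39) and Pdk4 (5.67, others from 6.34 to 6.37) were lowest.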

How the results depend on the processing

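Of the 38 genes, 2 passed as reported and 1 to 2 with single arrays left out. The count was 1 at an adjusted p under 0.01 (Ppara) and 0 without moderation of variances, where Ppara had an adjusted p of 0.0908 and Crat of 0.0851, and 8 had an unadjusted p under 0.05 in limma's moderated fit. Over all named genes, 458 passed as reported, 213 to 491 with single arrays left out, 721 with array weights, 97 without moderation and 139 at an adjusted p under 0.01. The labels do not say whether equal replicate numbers share an animal, litter or day. The correlations of their deviations over all named genes were -0.04, -0.11, 0.18 and -0.02. With 4 arrays per group these values cannot decide whether the samples were paired. With the replicate number as a block 268 genes passed, and 3 of the 38, Ppara, Crat and Ehhadh (adjusted p = 0.0434). Under that block the calls of Rxra (adjusted p = 0.0626), Scp2 (0.0921), Abcd4 (0.0673), Pex6 (0.0537) and Plin2 (0.0888) were lost, and Cyp4a10 (0.0460) and Hilpda (0.0479) passed. Quantile normalization turned the split of calls from 113 higher and 345 lower to 198 and 340. The median difference of the 38 genes lay between -0.05 and 0.11 over all settings, less than the spread between arrays away from the 0.06 reported. No called direction of the 38 genes reversed. Signs of 14 of them, past the threshold in neither fit, changed in 31 values, 7 of them without Ctrl 4.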
